A study of Homo sapiens with 3 samples.

Results

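The Wnt genes described here are 10 genes of canonical Wnt signalling: the DNA-binding factors LEF1, TCF7, TCF7L1 and TCF7L2, the feedback genes AXIN2, ZNRF3, RNF43 and DKK1, the coactivator gene CTNNB1 (beta-catenin) and the receptor gene FZD7. They were chosen by symbol, with earlier results of these data known. Every probe that the platform annotation gives to one of them was read. That gave 18 probes for 9 genes, out of 20045 genes with a probe. TCF7 was not analysed here because the annotation used gives it no probe.

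The samples were MDA-MB-231 cells, an established human triple-negative, mesenchymal-like breast cancer line. Total RNA was profiled on 3 Illumina bead arrays, with 1 sample in each group: MDA-MB-231 given a vector that expresses FBP1 (the FBP1 array), MDA-MB-231 given the vector without insert (empty vector, the EV array), and a control that the labels call wt without saying how it was handled (the wt array). FBP1 encodes the gluconeogenic enzyme fructose-1,6-bisphosphatase. The promoter of the vector, and whether the cells were a clone or a pool, are not stated in the labels. With 1 array per group there was no replicate check and no test, so each difference is a description of a pair of arrays.

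In Wnt signalling, a secreted Wnt protein binds a Frizzled receptor and an LRP co-receptor at the cell surface, which stops the destruction complex from degrading beta-catenin. Beta-catenin then enters the nucleus and joins TCF and LEF proteins, which repress target genes without it and activate them with it. Several targets feed back: AXIN2 rebuilds the destruction complex, ZNRF3 and RNF43 are membrane ubiquitin ligases that remove Frizzled, and DKK1 is a secreted protein that blocks the LRP co-receptor.

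The upstream sequence of LEF1 is shown because this member stood apart from both controls. That of DKK1 is shown because it was the one feedback gene with a match, among those that had a window. Each sequence is the 250 bases before a RefSeq start (build GRCh38.p14), 5′ to 3′ on the strand of the gene. The LEF1 window lies on the minus strand at chr4:108166302-108166551 and that of DKK1 on the plus strand at chr10:52314031-52314280. The LEF1 gene spans 108047548 to 108168932, so its window lies inside the gene, before an internal start. The DKK1 window lies just before its gene, which begins at 52314281. Capitals mark matches to the core bound by TCF and LEF proteins, searched on both strands as 4 words. The words were CTTTGAA, present in 3.8% of all promoter windows of this length, CTTTGAT, present in 2.26%, CTTTGTA, present in 2.35%, and CTTTGTT, present in 4.5%. They cannot overlap one another on a strand, though matches on opposite strands can.
LEF1: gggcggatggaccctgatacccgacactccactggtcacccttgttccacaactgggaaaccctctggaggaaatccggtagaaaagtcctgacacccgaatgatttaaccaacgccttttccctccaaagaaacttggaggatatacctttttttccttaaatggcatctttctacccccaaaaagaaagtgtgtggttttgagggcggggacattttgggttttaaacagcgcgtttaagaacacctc
DKK1: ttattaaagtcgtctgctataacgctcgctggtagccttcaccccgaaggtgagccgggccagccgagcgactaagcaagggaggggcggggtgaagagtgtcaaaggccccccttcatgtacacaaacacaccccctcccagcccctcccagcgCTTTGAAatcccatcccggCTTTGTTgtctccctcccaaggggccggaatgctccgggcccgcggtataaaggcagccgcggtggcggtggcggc
DKK1 had 2 matches, CTTTGAA from 95 to 89 bases and CTTTGTT from 76 to 70 bases before the start. The LEF1 window had none, and the sequence before the outer 5′ end of LEF1 was not searched. At least 1 of the 4 words was held by 4199 of all 35116 windows. Windows were found for 7 of the member genes and numbered 11, since some genes have several starts. A match was present in 3 of them: that of DKK1, the second of TCF7L2 and the second of TCF7. AXIN2, ZNRF3 and FZD7 had no window, so of the feedback genes only DKK1 and RNF43 were searched. A match describes letters in the window and says nothing of binding.

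The arrays had like depth of signal: between 41.8% and 42.0% of probes were detected at a detection p-value under 0.01, and median signals lay between 91.7 and 94.6 intensity units. The targeted gene FBP1 gave 1063.5 units on the FBP1 array, 678.6 on the EV array and 530.8 on the wt array. CDKN2A, a tumour suppressor gene that MDA-MB-231 is known to have lost, was read by 3 probes. The first, ILMN_1717714, gave 120.6 on the FBP1 array, 88.9 on the EV array and 89.0 on the wt array, and the second, ILMN_1744295, gave 105.2, 82.5 and 87.9. Both were detected on the FBP1 array alone, and ILMN_1757255 was detected on none. Of 3 probes for the neighbouring gene CDKN2B, ILMN_1723198 was detected on the EV array alone, with 89.4, 113.5 and 99.4 in the same order. The neighbouring gene MTAP was detected on the FBP1 array alone, with 107.5, 97.7 and 85.1. A check on genes that the line is known to lack counted 1 of 3 arrays as going against its label. The values above show at least 1 of CDKN2A, CDKN2B and MTAP detected on each of the FBP1 and EV arrays. Each member's difference below is therefore given for all 3 pairs of arrays, so that any one array can be set aside.

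Markers of other cell types were read as whole lists, each marker by its brightest probe, and summed as normalised linear levels. Of 17 lymphocyte markers, the FBP1 array detected 2, the EV array 4 and the wt array 2, with sums of 542, 639 and 615. The defining T cell genes CD3D, CD3E and CD3G and the leukocyte gene PTPRC were detected on no array. CD8A gave 101.7 on the FBP1 array, 143.2 on the EV array and 134.2 on the wt array. The B cell gene CD79B was the brightest of the list and detected on every array, with 196.6, 250.2 and 239.3 in that order. CD79A and ZAP70 were detected on the EV array alone. Of 15 luminal breast markers, 9, 9 and 8 were detected in the same order, with sums of 8568, 5683 and 4724, and ESR1, PGR, GATA3 and TFF1 were detected on none. FOXA1, which encodes a luminal transcription factor, was detected on the FBP1 array alone, with 153.6 units there, 85.8 on the EV array and 89.7 on the wt array. MUC1, a mucin gene, gave 2492.3, 878.4 and 494.9 in that order, and AGR2, a secretory protein gene, gave 858.0, 410.1 and 328.4. KRT8, a luminal keratin gene, went the other way, with 574.7, 847.9 and 774.2, and TFF3 was detected on the EV array alone. Of 6 basal epithelial markers with a probe, 3, 2 and 1 were detected, with sums of 1690, 1383 and 1163. LAMB3 was by far the brightest of these, with 1512.7, 1318.6 and 1172.4, while KRT5 and KRT14 were detected on no array. Of 10 fibroblast markers, 5, 5 and 4 were detected, with sums of 552, 513 and 523. Of 12 genes that mark MDA-MB-231 as a mesenchymal-type line, 11 were detected on every array, including VIM, CD44 and AXL, with sums of 36819, 41930 and 41176. The luminal and basal sums were thus highest on the FBP1 array, though not every marker in them was. The part of these marker differences in the Wnt gene differences was not tested. In RNA from whole cultures, fewer cells of a type and less RNA per cell cannot be told apart.

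Of the 18 member probes, 12 were detected on all 3 arrays and 6 on none, so detection did not separate the arrays for any member. The 12 belong to 7 genes. RNF43 and TCF7L1 had no detected probe, and 4 of the 7 CTNNB1 probes were not detected either. Signals are deposited intensities, and levels are normalised log2 intensities. They are compared within a probe only, since probes differ in brightness for reasons of their own.

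**Figure D1:**
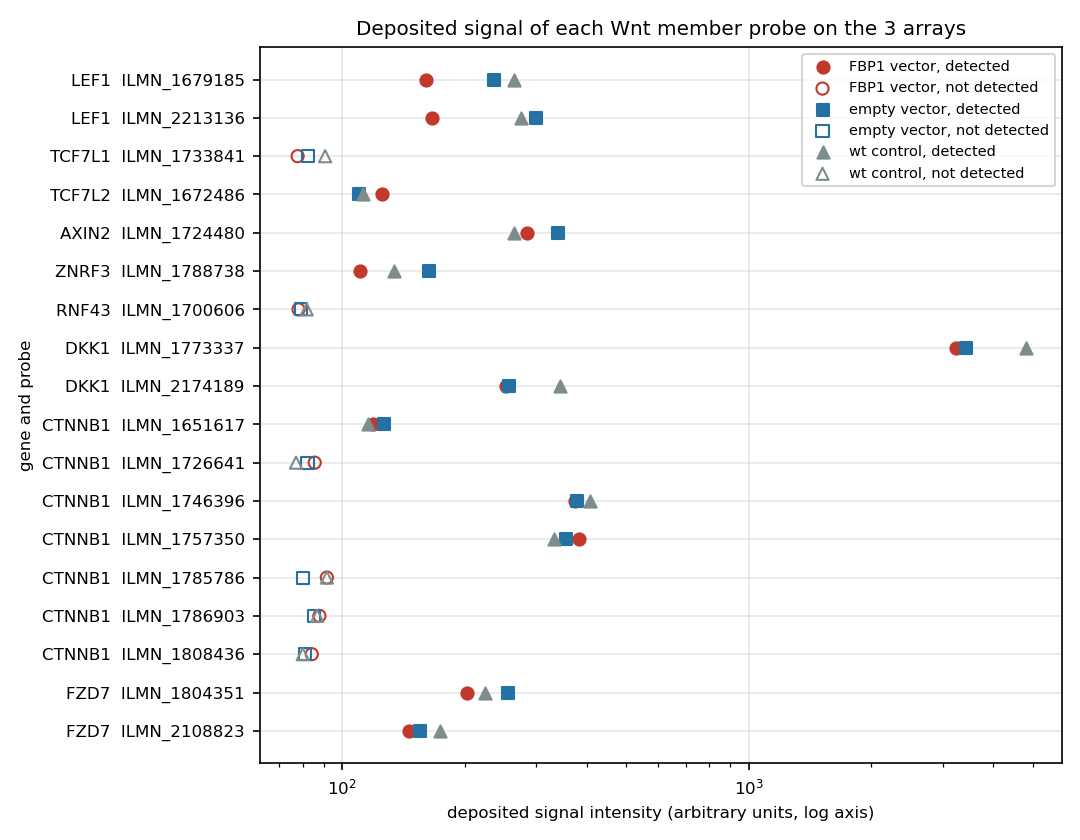
Deposited signal intensity (log axis) of each member probe, 1 row per probe, on the FBP1 vector, empty vector and wt control arrays; filled symbols were detected at a p-value under 0.01 and open symbols were not. Both LEF1 probes and the ZNRF3 probe lie lowest on the FBP1 array, the TCF7L2 probe lies highest there, and both DKK1 probes lie highest on the wt array.

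LEF1, the TCF and LEF family member best known as both a mediator and a target of the pathway, was lower on the FBP1 array than on both controls. Probe ILMN_2213136 gave 166.4 units on the FBP1 array, 299.7 on the EV array and 275.1 on the wt array. Probe ILMN_1679185 gave 161.2, 235.8 and 264.7 in the same order. On both probes the FBP1 array was the lowest and the controls lay near each other, in opposite orders. On the brighter probe, ILMN_2213136, the FBP1 array was 2.18-fold below the EV array (log2 difference -1.13) and 1.92-fold below the wt array (-0.94). On ILMN_1679185 it was 1.66-fold (-0.74) and 1.91-fold (-0.94) lower. The EV array differed from the wt array by 0.19 on the first probe and by -0.20 on the second.

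The agreement of the probes can be set beside other genes. For 2170 genes with exactly 2 probes detected on all arrays, the gap between the log2 differences of both probes had a median of 0.19 and a 90th percentile of 0.58 for the FBP1 and EV arrays. The gap between the LEF1 probes was 0.39 there, and 0.00 for FBP1 minus wt. Among 12413 genes compared between the FBP1 and EV arrays, each read from its brightest probe, 59 were as low as LEF1 or lower. Against the wt array it was 222 of 12404. These ranks rest on ILMN_2213136 alone. The other LEF1 probe, with a smaller difference from the EV array (-0.74), was not ranked.

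TCF7L2, the family member widely expressed in epithelia, was higher on the FBP1 array by a smaller amount. Its 1 probe gave 125.1 units on the FBP1 array, 110.0 on the EV array and 112.3 on the wt array, all not far above background. The FBP1 array was 1.52-fold above the EV array (0.61) and 1.39-fold higher than the wt array (0.48). The controls differed by -0.13. The signal before background correction was only 1.14 times that of the EV array. The difference from the EV array was 0.35 with a larger offset of 50, 0.32 with that offset and a background fitted to all probes, 0.26 with no background correction and 0.22 with the authors' processed values, so the 1.5-fold call was lost under these settings. TCF7L1, the member best known as a repressor, gave 77.7, 82.3 and 90.8 on the FBP1, EV and wt arrays and was detected on none, so no fold is given.

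Of the feedback genes, ZNRF3 was the one with a difference of 1.5-fold or more. Its probe gave 110.4 units on the FBP1 array, 163.9 on the EV array and 134.2 on the wt array. The FBP1 array was the lowest, and the controls lay apart from each other. ZNRF3 was 2.08-fold below the EV array (-1.06) and 1.43-fold below the wt array (-0.52). The EV array was itself 1.45-fold above the wt array (0.54), a gap as wide as that of the FBP1 array from the wt array. With no background correction the difference from the EV array was -0.50 and with the authors' processed values -0.40, both short of 1.5-fold.

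AXIN2, the feedback gene most often read as a measure of pathway activity, did not lie at one end. Its probe gave 284.3 units on the FBP1 array, 340.3 on the EV array and 264.1 on the wt array. The FBP1 array lay between the controls on the normalised scale too, 0.20 below the EV array (-0.20) and 0.32 above the wt array. The widest AXIN2 difference was between the controls, with the EV array 1.43-fold above the wt array (0.52).

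DKK1 set the wt array apart from the other arrays. Probe ILMN_1773337 gave 3242.4 on the FBP1 array, 3423.6 on the EV array and 4799.2 on the wt array. Probe ILMN_2174189 gave 252.6, 257.8 and 343.7 in the same order. Both probes placed the wt array highest and the FBP1 and EV arrays close together. The FBP1 array differed from the EV array by 0.02 and 0.10 on the log2 scale on the 2 probes. It was 1.37-fold (-0.45) and 1.32-fold (-0.40) below the wt array. The EV array was 1.38-fold (-0.47) and 1.42-fold (-0.51) below the wt array. No DKK1 difference reached 1.5-fold. RNF43 gave 78.1, 79.2 and 81.8 on the FBP1, EV and wt arrays and was detected on none.

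CTNNB1, whose product is controlled mainly by degradation and not by its mRNA, showed no difference of 1.5-fold on any of its 3 detected probes. Probe ILMN_1746396 gave 373.7 units on the FBP1 array, 379.1 on the EV array and 407.5 on the wt array, with log2 differences of 0.11 and 0.02 from the EV and wt arrays. Probe ILMN_1757350 gave 383.0, 355.8 and 332.0, with differences of 0.27 and 0.44. The dimmer probe ILMN_1651617 gave 118.8, 126.9 and 116.0, with differences of -0.05 and 0.20. Between the EV and wt arrays the differences were -0.08, 0.17 and 0.25 on these probes. The probes thus did not order the arrays alike.

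FZD7, a Frizzled receptor often expressed in triple-negative breast cancer, also gave unlike orders on its probes. Probe ILMN_1804351 gave 202.7 on the FBP1 array, 255.5 on the EV array and 224.0 on the wt array, with log2 differences of -0.35 and -0.04 from the controls. Probe ILMN_2108823 gave 146.3, 155.2 and 174.3, with differences of 0.00 and -0.31. The EV array differed from the wt array by 0.30 on the first probe and -0.31 on the second. The FBP1 array gave the lowest deposited signal on both probes, but no normalised difference reached 1.5-fold and the controls swapped places between the probes.

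**Figure D2:**
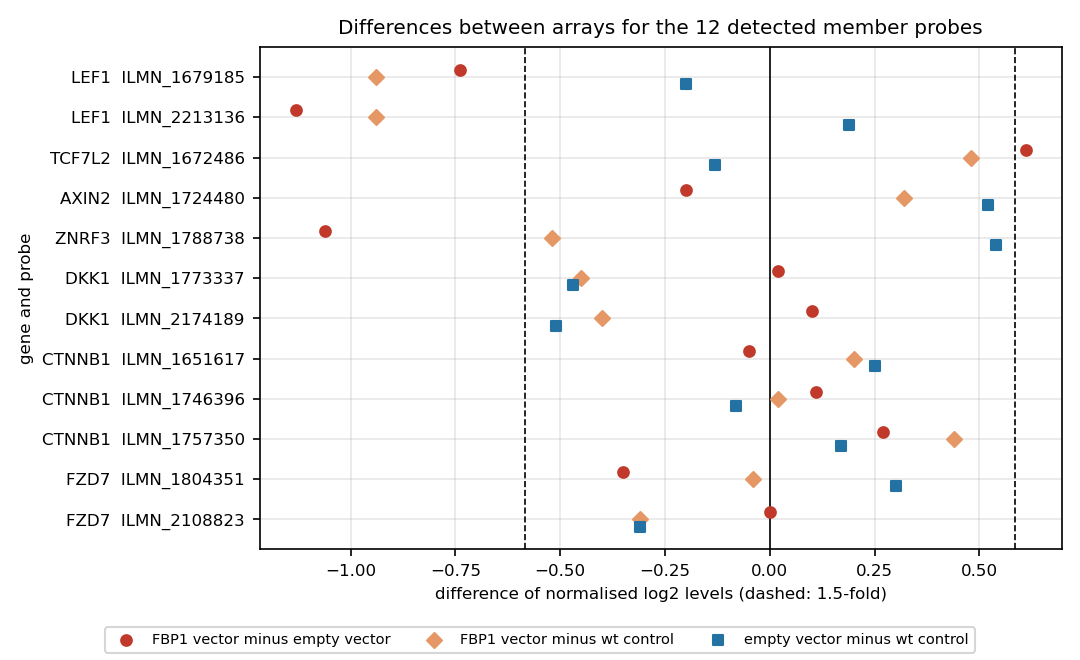
Log2 differences between arrays for the 12 member probes detected on all 3 arrays, 1 row per probe, for FBP1 vector minus empty vector, FBP1 vector minus wt control and empty vector minus wt control; dashed lines mark 1.5-fold. Both LEF1 probes lie past the lower line against both controls, ZNRF3 (-1.06) and TCF7L2 (0.61) pass a line against the EV array only, and no difference between the controls passes a line.

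Counted by gene from the brightest probe, 1 of the 7 detected members (TCF7L2) was higher by 1.5-fold or more on the FBP1 array than on the EV array and 2 were at least 1.5-fold lower (LEF1 and ZNRF3). Of all 12413 genes compared, 6.76% were that much higher and 6.05% that much lower. The 3 members with either call were 42.9% of the 7, against 12.8% of all genes. The members were chosen with earlier results of these data known, so this share is not a result about them as a group. The count was 1 with no background correction and 1 with the authors' processed values. At 2-fold the count was 0 higher and 2 lower, against 1.31% and 0.975% of all genes (2.29% in either direction). The share of all calls that was upward was 52.8%, but 83.0% with median scaling and 65.0% with the authors' processed values. Against the wt array 1 of 7 members (LEF1) was at least 1.5-fold lower and none was higher, which is 14.3% of the members against 17.0% of all genes with either call. That share is close to the background and is not a result about the members as a group. Of all 12404 genes compared with the wt array, 8.96% were higher and 8.0% lower by that size. At 2-fold no member was called, against 1.96% of genes higher, 1.46% lower and 3.42% in either direction. The upward share of the 1.5-fold calls was 52.8%, or 90.6% with median scaling.

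Between the EV and wt arrays none of the 7 members reached 1.5-fold, against 3.99% of all 12344 genes higher, 3.35% lower and 7.35% in either direction. None reached 2-fold, against 0.502% higher, 0.559% lower and 1.06% in either direction. The upward share of all such calls was 54.4%, or 75.1% with median scaling. The median difference over the 7 members was -0.20 for FBP1 minus empty vector, -0.04 for FBP1 minus wt and 0.19 for empty vector minus wt. Over all genes compared it was -0.01, 0.0 and 0.01. LEF1 alone was at least 1.5-fold lower on the FBP1 array than on both controls, against 3.06% of 12895 genes, and no member was that much higher than both, against 4.02%. These differences share the FBP1 array. With the authors' processed values LEF1 stood at -0.64 against the EV array and -0.52 against the wt array, so its call against the wt array was lost there.

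**Figure D3:**
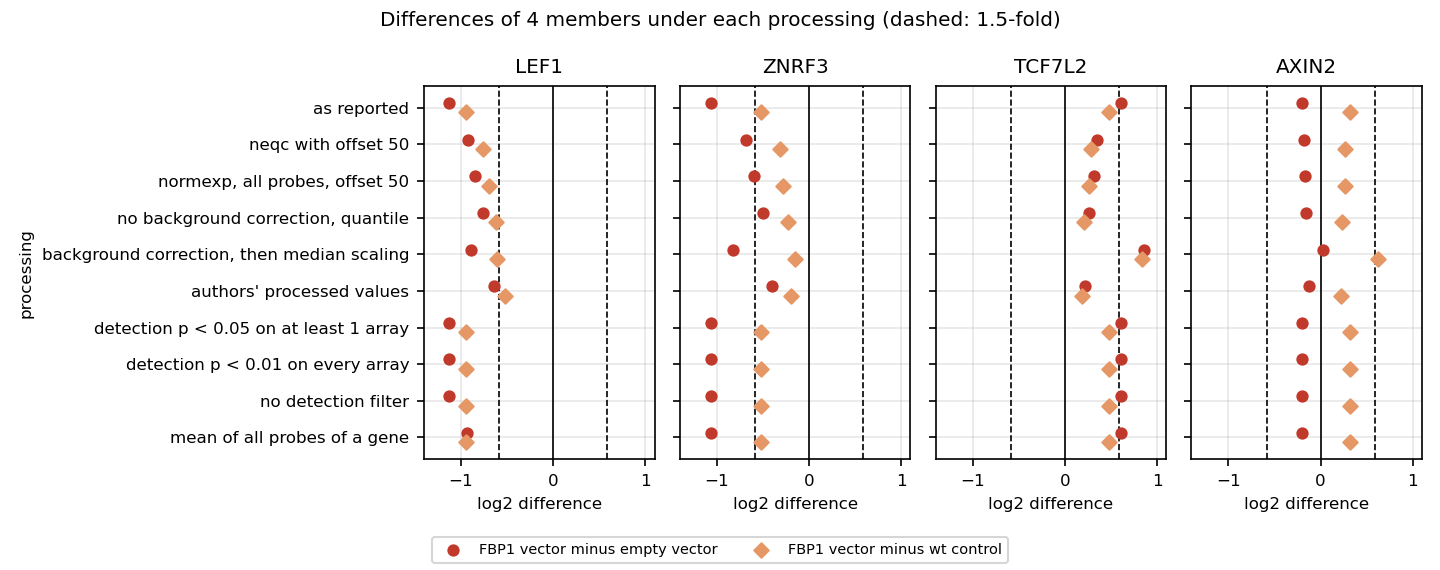
Log2 differences of LEF1, ZNRF3, TCF7L2 and AXIN2 under the reported processing and 9 alternatives (rows), for FBP1 vector minus empty vector and FBP1 vector minus wt control; dashed lines mark 1.5-fold. LEF1 stays below 0 in all 10 rows, between -1.13 and -0.64 against the EV array and between -0.94 and -0.52 against the wt array, whereas the ZNRF3 call (-1.06 as reported) and the TCF7L2 call (0.61) against the EV array do not hold in every row. Rows that change only the detection filter repeat the reported values by construction. So does the mean of probes for ZNRF3, TCF7L2 and AXIN2, which have 1 probe each.

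The genes whose pattern over the 3 arrays was most like that of LEF1 were found by the Euclidean distance between centred log2 levels, among 10499 genes detected on all arrays. The 5 nearest were CPA4, a carboxypeptidase gene, at a distance of 0.006, TAGLN, which encodes the actin-binding protein transgelin, at 0.018, HMGN2, a nucleosome-binding protein gene, at 0.023, the histone gene H3C13 at 0.024 and PIF1, a DNA helicase gene, at 0.029. CPA4 gave 453.9 units on the FBP1 array, 980.8 on the EV array and 907.4 on the wt array. HMGN2 gave 2636.4, 5985.6 and 5516.0. The likeness rests on 3 values a gene, and histone and HMGN probes may also read close copies of their gene.

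The rest of the pathway was read from lists by role. Of 132 other pathway genes, 129 had a probe and 81 were detected on the FBP1 or EV array. Of the 81, 5 had a higher level on the FBP1 array by 1.5-fold or more and 1 had a lower one, with a median difference of -0.01, where 12.8% of all genes were called in either direction. Against the wt array 10 of 82 were higher and 4 lower, with a median of 0.04, where 17.0% of all genes were called. Between the EV and wt arrays 6 of 83 were higher and 8 lower, with a median of 0.09, where 7.35% of all genes were called. The called share of the listed genes was thus 7.41%, 17.1% and 16.9% in these comparisons. By role the medians spread more widely, with the lowest for the secreted inhibitors between the controls (-0.29) and the highest for the receptors in the same comparison (0.21).

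Among the ligands and their export factors, 8 of 20 genes with a probe were detected on the FBP1 or EV array and none reached 1.5-fold, with a median of 0.08. WLS, the carrier that takes Wnt proteins to the cell surface, gave 1816.2 on the FBP1 array, 1364.3 on the EV array and 1239.3 on the wt array, which is 0.54 and 0.76 above the controls. WNT1, which the FBP1 array alone detected, was at least 1.19-fold higher than on the EV array. WNT10B stood at -0.25 against the EV array, and WNT7A, detected on the EV array alone, was at least 1.24-fold lower on the FBP1 array. Against the wt array 1 of 9 ligand genes was higher (WLS) and 2 were lower, with a median of -0.23, and between the EV and wt arrays 3 of 10 were lower. The 2 lower on the FBP1 array, WNT5A and WNT8A, are named after their values were seen. WNT5A gave 81.1, 89.6 and 110.3 units on the FBP1, EV and wt arrays and WNT8A gave 80.2, 78.7 and 109.8, and both were detected on the wt array alone.

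Among the receptors, co-receptors and R-spondins, 13 of 21 genes were detected on the FBP1 or EV array, and LRP5 was the one at least 1.5-fold away. LRP5, a Wnt co-receptor, gave 1075.1 units on the FBP1 array, 794.0 on the EV array and 554.8 on the wt array. The FBP1 array was the highest, and the EV array was also above the wt array. The log2 differences were 0.60 and 1.23 for the FBP1 array and 0.63 between the controls. The first of these lies close to the 1.5-fold cut (0.58). LRP5 has 2 probes, and only the brighter was read. FZD3 stood at 0.38 against the EV array and the receptor kinase-like gene RYK at -0.29. RSPO2, detected on the EV array alone, was at least 1.27-fold lower on the FBP1 array. The median was -0.01 against the EV array and 0.14 against the wt array.

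Secreted and membrane inhibitors other than DKK1 were mostly undetected. Of 15 with a probe, 6 were detected on the FBP1 or EV array and none reached 1.5-fold between them, with a median of 0.03. DKK3 stood at -0.50, and KREMEN2, a DKK receptor gene that only the controls detected, was lower on the FBP1 array by at least 1.4-fold than on the EV array. SFRP1 and FRZB, secreted Frizzled decoys detected on the FBP1 array and not on the EV array, were at least 1.27-fold and 1.13-fold higher.

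Of 19 genes of the dishevelled proteins and the destruction complex, 13 were detected on the FBP1 or EV array, none reached 1.5-fold, and the median was 0.09. AMER1, an APC-binding membrane protein gene, stood at -0.27 and the kinase gene CSNK1A1 at -0.24. USP34, a deubiquitinase gene, stood at 0.57 against the EV array and 0.65 against the wt array. TNKS2, a tankyrase gene that the FBP1 array alone detected, was at least 1.17-fold higher. Of 22 nuclear cofactors, 18 were detected, and EP300, the acetyltransferase that assists beta-catenin, was the one past 1.5-fold, at 0.59. It gave 164.0 units on the FBP1 array, 140.7 on the EV array and 143.5 on the wt array. This call lies close to the 1.5-fold cut (0.58). Listed genes other than the members were not read under the alternative processing. HBP1, a repressor of Wnt targets, stood at 0.40, and the corepressor genes TLE3 and TLE1 at -0.37 and -0.25.

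Other target genes moved in both directions. Of 23 detected on the FBP1 or EV array, 3 were higher on the FBP1 array by 1.5-fold or more and 1 lower, with a median of 0.06. Against the wt array 5 of 24 were higher and 1 lower, with a median of 0.08. PTGS2, the cyclooxygenase gene, gave 1659.0 on the FBP1 array, 427.8 on the EV array and 991.0 on the wt array, which is 2.29 and 0.97 above the controls, and the controls themselves differed by -1.32. EDN1, the endothelin gene, stood at 1.09 and 0.56 against the EV and wt arrays. BMP4, a growth factor gene, stood at 0.92 and 0.84, with the controls apart by -0.09. MMP7, a matrix protease gene that the EV array alone detected, was lower on the FBP1 array by at least 1.53-fold, and the survival factor gene BIRC5 stood at -0.56. SP5, a transcription factor gene widely used as a direct Wnt target and named after its values were seen, gave 98.1 units on the FBP1 array, 120.5 on the EV array and 114.8 on the wt array, which is -0.55 and -0.44 from the controls and short of 1.5-fold. Several of these genes also answer to other pathways.

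**Figure D4:**
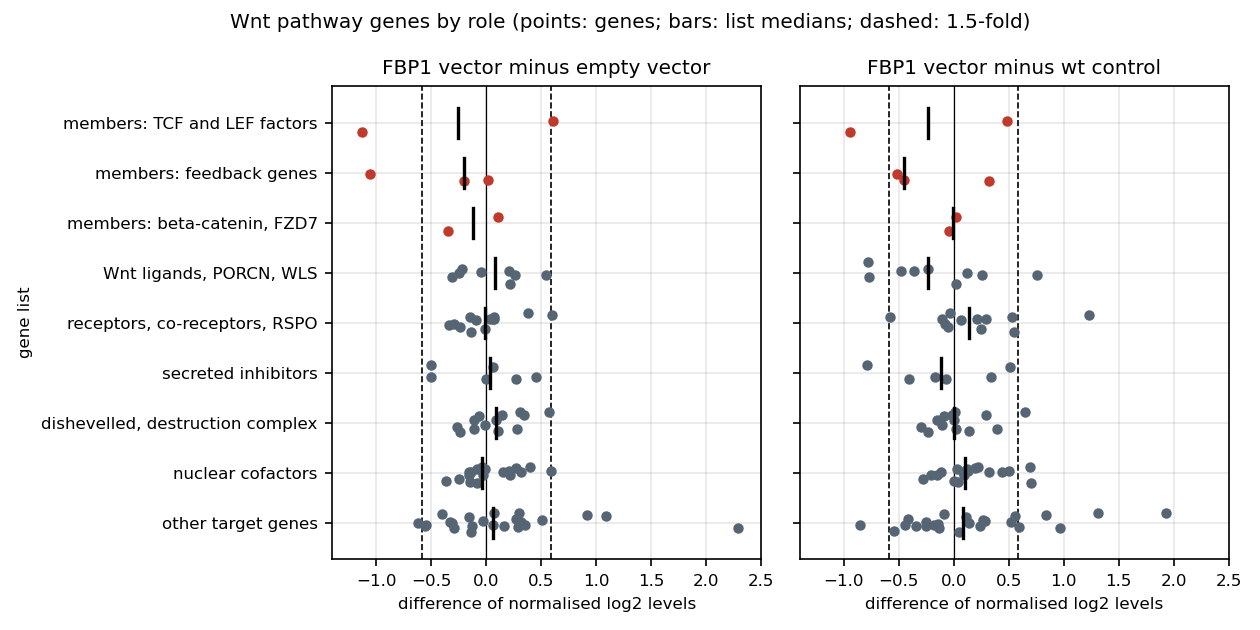
Log2 differences of Wnt pathway genes by role (rows), for FBP1 vector minus empty vector (left) and FBP1 vector minus wt control (right); points are genes detected on at least 1 of the arrays compared, members in red, bars are list medians and dashed lines mark 1.5-fold. LEF1 (-1.13) and ZNRF3 (-1.06) lie farthest to the left against the EV array, and all list medians there lie between -0.26 and 0.09. A gene not detected on its dimmer array is drawn at its measured difference, which can exceed the at-least fold given in the text.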

How the data were processed

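The first deposited table holds a linear signal intensity for each probe and array and, per the file headers, a detection p-value beside it. A second deposited table gives intensities that the authors had processed, by a method not given in the sources used here, as are the scanner software and bead summary. The neqc function (limma 3.58.1, R 4.3.3, offset 16) took the deposited intensities, subtracted a background inferred from the detection p-values, quantile normalised them and returned log2 levels. Of 48107 probes, 2 lacked a value and were left out. The platform annotation gave 30113 probes 1 gene, of which 30074 matched RefSeq by gene ID; 8 had several genes and 17986 were unnamed.

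A gene was counted from its brightest probe and compared if that probe had a detection p-value under 0.01 on at least 1 array compared. A difference was called at 1.5-fold, and 2-fold is also given. Where the dimmer array did not detect the probe, the fold is at least the value given: the dimmer level was set to the lowest of any detected probe there, or to the probe's own where that was higher. For each list, the 2 highest and 2 lowest detected genes against the empty vector (EV) array, and genes 1.5-fold from both controls, were named. The members and lists were chosen with earlier results of these data known. The steps were tested on simulated data in which only bright probes were changed and judged, by a fold larger than that of any member. That test does not cover dim probes such as those of ZNRF3 and TCF7L2. Tables were handled with Python 3.11.15, numpy 2.4.6, pandas 2.3.3 and matplotlib 3.10.9.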

Additional observations from a re-analysis of the deposited data

How the results depend on the processing

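Precision is limited by there being 1 array per group. No paired analysis was possible because each group has 1 array. Of 9 alternatives, the mean over all probes of a gene kept every count of called members within 1.5 times the count reported. The detection filters did so too, but they reused the reported levels. Each member probe was detected on all arrays or on none, so the filters say nothing about how stable the counts are. Against the EV array the count of members called was 1 with no background correction and 1 with the authors' processed values, with 0 higher and 1 lower in both. With an offset of 50, alone or together with normexp fitted to all probes, 0 members were higher. Against the wt array the authors' processed values gave 0 members called, 0 lower, and 0 away from each control. Median scaling shifted the median of all genes by 0.21 for FBP1 minus empty vector and 0.29 for FBP1 minus wt. Under it 3 members were called against the wt array, 2 of them higher (TCF7L2 and AXIN2), 2 between the controls, both higher (AXIN2 and ZNRF3), and 2 stood away from each control (LEF1 and TCF7L2). Relative to the shift, TCF7L2 stood at 0.55 and AXIN2 at 0.33 against the wt array, and between the controls AXIN2 at 0.52 and ZNRF3 at 0.59. No member difference past 1.5-fold as reported changed sign under the 9 alternatives, though the detection filters among them could not change one. Of the smaller ones 5 did: AXIN2 for FBP1 minus EV was 0.03 with median scaling, against -0.20 as reported, and FZD7 for FBP1 minus wt 0.27, against -0.04. For EV minus wt the mean of probes gave LEF1 -0.01, against 0.19, CTNNB1 0.02, against -0.08, and FZD7 -0.01, against 0.30. That mean included the CTNNB1 probes that were detected on no array. Over all genes, 839 were at least 1.5-fold higher and 751 lower on the FBP1 array than on the EV array as reported. The counts were 443 and 316 with an offset of 50, 408 and 286 with normexp and that offset, 321 and 214 with no background correction, 1936 and 397 with median scaling and 265 and 143 with the authors' values. For FBP1 minus wt they were 1111 higher (from 416 to 3023 under the alternatives) and 992 lower (258 to 1006), and for EV minus wt 493 higher (from 66 to 707 under the alternatives) and 414 lower (65 to 433). The cause of these changes was not tested.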
